A study of Mus musculus with 8 samples.

Results

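Oligodendrocyte and astrocyte lineage genes of the embryonic mouse cortex were represented by 9 genes: Olig1, Olig2, Sox10, Pdgfra, Mbp, Scrg1, Gjb6, S100b and Aldh1l1. All array probes paired with these symbols were taken, which gave 15 probes among 41174 gene probes, and 9 genes among 18322 with a symbol. Olig2, Sox10, Pdgfra and Gjb6 had 2 probes each and Mbp had 3, and the brightest probe of such a gene is called probe A here.

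Foxo6, a forkhead transcription factor, was knocked down in utero in C57/BL6 embryos at E14.5, and cells were taken at E16.5. The groups were siFoxO6-3 (4 pools of cortices), siFoxO6-2 (4 pools) and a non-targeting scrambled siRNA (1 pool), each given at 1 ug per ul together with a GFP vector that all embryos received. Electroporated cortices were dissociated and FAC-sorted, and each siRNA pool was hybridised on a dual-colour array against the scrambled pool, with dyes swapped on replicates 1 and 3 of each siRNA. All values against scrambled therefore share 1 control pool, whose own spread is left out of their p-values. The labels do not name the gate of the sort or the cell types it kept. In such bulk RNA, more cells of a type and more RNA per cell cannot be told apart.

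The siRNAs that define the groups are shown first, since the members are compared between them. The labels give 19 specified bases (capitals) of 21 for each, without saying which strand is given.
siFoxO6-3: nnCCAUCAGCCUUAUGACGCU
siFoxO6-2: nnACAUGCCAGUGACGACUAC

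In the developing cortex, radial glia first produce neurons and later switch to making glia. Oligodendrocyte precursors arise under the basic helix-loop-helix factors Olig1 and Olig2 and the HMG-box factor Sox10, carry the platelet-derived growth factor receptor Pdgfra, and make myelin proteins such as Mbp only after they mature. Astrocytes and their precursors are recognised by genes such as Aldh1l1, S100b and the connexin gene Gjb6, most of them at low levels before birth.

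The levels behind the ratios were as follows. Per array, the median spot read 58.0 to 123 in the siRNA pool's channel, against 66.0 to 83.9 in the scrambled pool's, over a local background of 44 to 54. A signal counted as above the control spots when it passed the 97.5th percentile of 959 control spots at background level. Of the 15 member probes, 10 did so in both channels on all 8 arrays, so each of the 9 genes had at least 1 measured probe. Ratios are log2 of siRNA over scrambled after loess normalization within each array, and a probe was called when limma's adjusted p over all 41174 probes was under 0.05. Foxo6 was lower on all 8 arrays, by -1.65 with siFoxO6-3 (adjusted p = 0.00954, limma) and -0.95 with siFoxO6-2 (adjusted p = 0.00549). Under median centring Foxo6 stood at -1.06 with siFoxO6-3 and -0.31 with siFoxO6-2. All 6 measured markers of cortical excitatory neurons were above the control spots on all 8 arrays. The ratios of siFoxO6-3 replicate 4 resembled those of the other arrays least, with a median correlation across probes of 0.13, followed by siFoxO6-2 replicate 3 at 0.27 and siFoxO6-3 replicate 3 at 0.28.

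With both siRNAs in 1 mean, Olig1, Scrg1, Olig2, Pdgfra and Gjb6 were called higher than scrambled under loess, by 0.25 to 0.62 on the log2 scale. Mbp fell by 0.39 under loess but stood at 0.054 under median centring. Only Olig1 and Scrg1 were still called under median centring. Scrg1 stood at 1.10 with siFoxO6-3 against 0.14 with siFoxO6-2. The Olig2 call held in 4 of the 8 fits that left out 1 array, and the Pdgfra call in 1. Sox10, S100b and Aldh1l1 were called under neither normalization. In probes after loess, 5 of 15 were called higher and 1 lower, while 11.8% of all probes were called, 6.12% higher and 5.73% lower. In genes, by the brightest probe, 5 of 9 were higher and 1 lower, against 7.29% higher and 7.95% lower of all genes with a symbol. These shares include genes near the control spots, while each brightest member probe passed them in both channels on all 8 arrays. With only the 28249 probes that passed them in both channels on at least 4 arrays, 5150 were called, among them 6 of 11 member probes. The median log2 ratio of the 9 brightest member probes was 0.25, and that of all genes was 0.001. The 9 genes were put together with results of these arrays known, so these counts describe them only. None of the 6 further probes (0 of 6) was called.

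**Figure D1:**
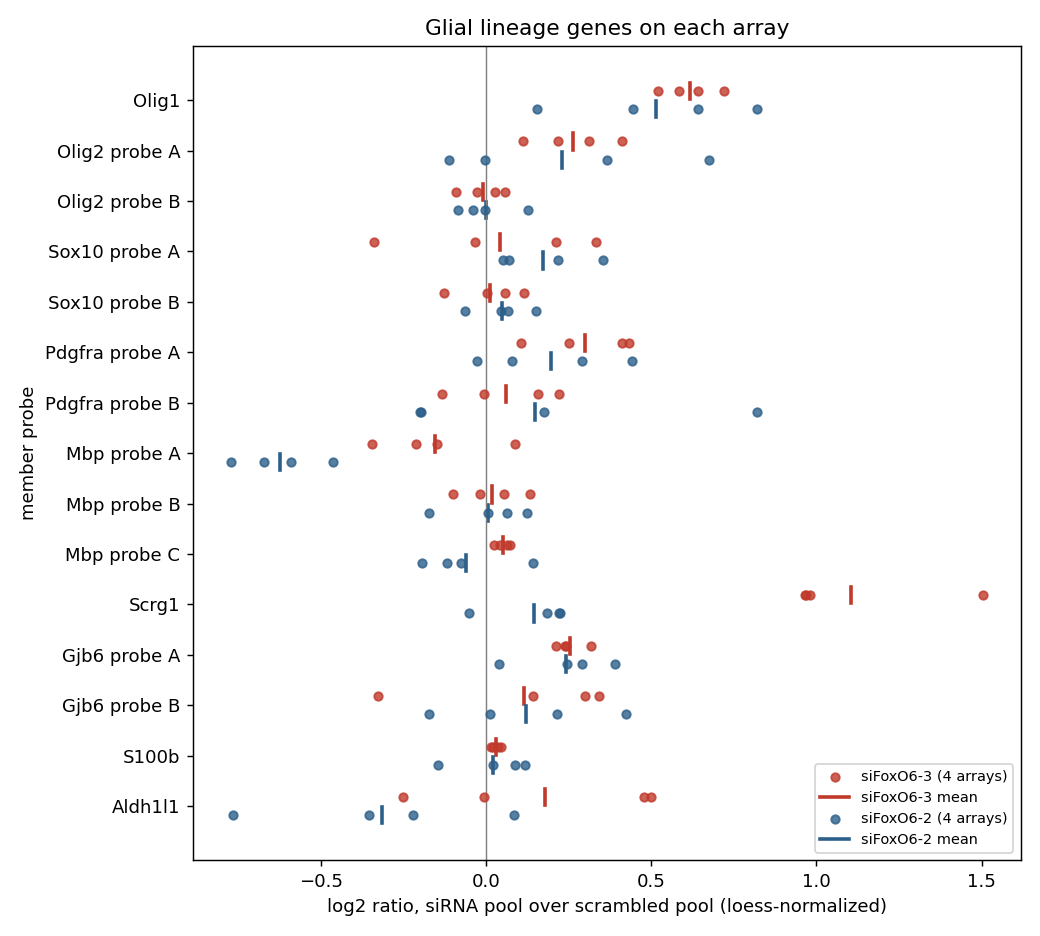
Log2 ratio of the siRNA pool over the scrambled pool (horizontal axis) for the 15 member probes (vertical axis), with 1 point per array and a bar at the mean of 4 arrays. Olig1 lies above 0 on all 8 arrays, Scrg1 at 0.97 to 1.50 with siFoxO6-3 against -0.05 to 0.22 with siFoxO6-2, and Mbp probe A at -0.77 to -0.47 with siFoxO6-2, all after loess.

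Olig1 and Olig2 encode related transcription factors, and in the RefSeq annotation they are neighbouring protein-coding genes on mouse chromosome 16. Olig1 had log2 ratios of 0.58, 0.52, 0.64 and 0.72 on siFoxO6-3 replicates 1 to 4. On siFoxO6-2 replicates 1 to 4 it had 0.64, 0.15, 0.82 and 0.44. All 8 arrays were above 0, the siRNAs overlapped, and siFoxO6-2 replicate 2 was the lowest. Before any correction, the Olig1 spot read 371, 480, 393 and 131 in the siFoxO6-3 channel, against 159, 133, 106 and 102 in the scrambled channel of the same arrays. It read 378, 227, 241 and 444 in the siFoxO6-2 channel, against 145, 125, 129 and 106 in the scrambled channel. The siRNA channel was thus brighter on all 8 arrays, with the smallest gap on siFoxO6-3 replicate 4, whose siRNA channel was the dimmest of all. Part of this gap was general: before loess the mean log2 ratio of Olig1 was 1.32, and 2894 probes of like intensity had a median of 0.77. The fitted mean was 0.57 (SE 0.06, adjusted p = 0.00282, limma), or 1.48-fold. By siRNA it was 0.62 ± 0.08 with siFoxO6-3 (SD, n = 4 pools; limma adjusted p = 0.034) and 0.51 ± 0.29 with siFoxO6-2 (SD, n = 4 pools; limma adjusted p = 0.0144). The siFoxO6-3 call was lost in 6 of the 8 fits that left out 1 array (all but those without siFoxO6-2 replicate 2 or 3), with ratios of 0.53 to 0.67 and adjusted p up to 0.177. The siFoxO6-2 call was lost without siFoxO6-2 replicate 1 or 4 (adjusted p of 0.0788 and 0.0888). With both siRNAs together Olig1 was called in all 8 such fits.

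Olig2 probe A had 0.31, 0.22, 0.41 and 0.11 on siFoxO6-3 replicates 1 to 4. On siFoxO6-2 replicates 1 to 4 it had 0.37, -0.01, 0.67 and -0.11. The ratio was above 0 on 6 of 8 arrays, and the 2 below were the siFoxO6-2 arrays with the siRNA pool in Cy5. Across both siRNAs, the mean ratio was 0.05 on the arrays with the siRNA pool in Cy5 and 0.44 on those with it in Cy3, so the dye term of the fit was large for this probe. Its fitted mean was 0.25 (SE 0.05, adjusted p = 0.0248, limma), and without the dye term the adjusted p was 0.0937. It was called in 4 of the 8 fits that left out 1 array, not without siFoxO6-3 replicate 2 or 3 or siFoxO6-2 replicate 1 or 2 (adjusted p up to 0.0789), and was called with neither siRNA alone (adjusted p = 0.171 with siFoxO6-3 and 0.11 with siFoxO6-2). Olig2 probe B passed the control spots in 1 array per channel and gave -0.01 (adjusted p = 0.94, limma).

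Sox10, which switches on oligodendrocyte genes, had no called change. Sox10 probe A had ratios of -0.34, 0.21, -0.03 and 0.33 on siFoxO6-3 replicates 1 to 4. On siFoxO6-2 replicates 1 to 4 they were 0.22, 0.05, 0.35 and 0.07. The siFoxO6-3 arrays fell on both sides of 0 and enclosed nearly all the siFoxO6-2 values. The fitted mean was 0.11 with a 95% interval of -0.06 to 0.28 (adjusted p = 0.429, limma). Sox10 probe B passed the control spots on only 2 arrays per channel and gave 0.03 (adjusted p = 0.66).

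Pdgfra, the receptor that marks oligodendrocyte precursors and also some mesenchymal cells, had probes that gave unlike values. Pdgfra probe A had 0.43, 0.11, 0.41 and 0.25 on siFoxO6-3 replicates 1 to 4, and 0.44, 0.29, -0.03 and 0.08 on siFoxO6-2 replicates 1 to 4. The siRNAs overlapped, and siFoxO6-2 replicate 3 was the only array below 0. The fitted mean was 0.25 (SE 0.06, adjusted p = 0.0332, limma), and the call held in 1 of the 8 fits that left out an array, the one without siFoxO6-2 replicate 3 (adjusted p = 0.00225; up to 0.102 in the others). Pdgfra probe B, also above the control spots on all 8 arrays, had 0.16, -0.13, 0.22 and -0.01 with siFoxO6-3. With siFoxO6-2 it had 0.82, -0.20, -0.20 and 0.17, and 1 array stood above the rest. Its fitted mean was 0.10 (SE 0.10, adjusted p = 0.598). Markers of meninges, which can hold Pdgfra-expressing cells, were all above the control spots on 8 arrays; 0 of 4 were called with both siRNAs, and their mean ratio per array was -0.20 to 0.01 with siFoxO6-3 and -0.16 to 0.61 with siFoxO6-2. The part of such cells in the Pdgfra values was not tested.

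Mbp, the myelin basic protein gene, was the only member called lower, through its brightest probe. Mbp probe A had -0.15, -0.21, 0.09 and -0.35 on siFoxO6-3 replicates 1 to 4. On siFoxO6-2 replicates 1 to 4 it had -0.59, -0.67, -0.47 and -0.77. After loess all siFoxO6-2 arrays lay below all siFoxO6-3 arrays. Under median centring they overlapped, with 0.22, 0.67, 0.86 and -0.59 on the siFoxO6-3 arrays against -0.26, -0.16, -0.48 and 0.17 on the siFoxO6-2 arrays. The fitted ratio was -0.16 ± 0.18 with siFoxO6-3 (SD, n = 4 pools; limma adjusted p = 0.228) and -0.63 ± 0.13 with siFoxO6-2 (SD, n = 4 pools; limma adjusted p = 0.00419), and -0.39 with both together (SE 0.04, adjusted p = 0.002). The uncorrected Mbp spot read 515, 620, 629 and 124 in the siFoxO6-3 channel, against 337, 246, 214 and 210 in the scrambled channel. In the siFoxO6-2 channel it read 370, 289, 186 and 464, against 328, 258, 247 and 231 in the scrambled channel. The siRNA channel was brighter on 6 of 8 arrays before normalization, with a mean log2 ratio of 0.46, while 2008 probes of like intensity had a median of 0.86. The negative value is thus relative to spots of like brightness, and with each array centred on its median instead Mbp probe A stood at 0.054 with both siRNAs (adjusted p = 0.789, limma) and at -0.18 with siFoxO6-2 (adjusted p = 0.542). Mbp probes B and C were close to the control spots (above them in both channels on 2 arrays and 1 array) and gave 0.01 (adjusted p = 0.899) and -0.01 (adjusted p = 0.94).

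**Figure D2:**
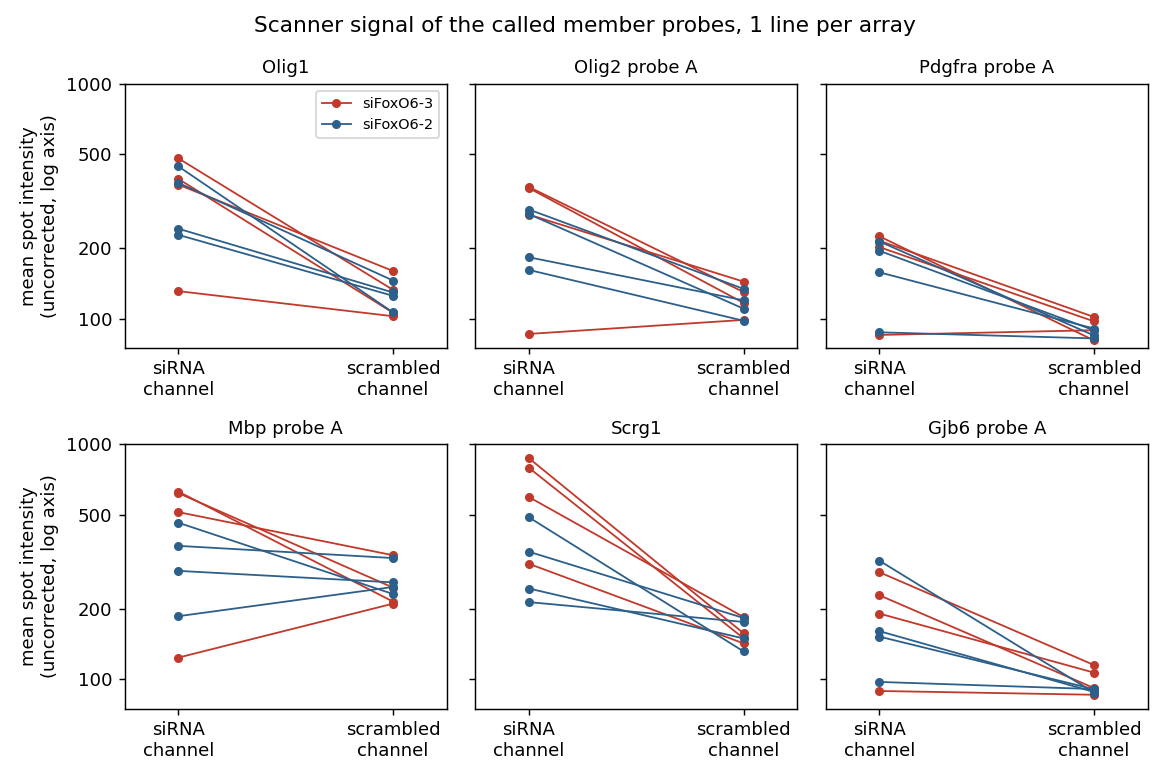
Uncorrected mean spot intensity (log axis) in the siRNA channel and the scrambled channel of each array for the 6 member probes called with both siRNAs together, with 1 line per array. The Olig1 and Scrg1 lines fall from the siRNA channel to the scrambled channel on all 8 arrays, and Mbp probe A is brighter in the siRNA channel on 6 of 8. These intensities still hold the difference between channels that loess takes out.

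Scrg1, scrapie responsive gene 1, encodes a small secreted protein found in brain glia. It had the largest ratio of the members with siFoxO6-3 and in the mean of both siRNAs, but not with siFoxO6-2, where 5 other members had higher ratios. It had 0.97, 0.97, 0.98 and 1.50 on siFoxO6-3 replicates 1 to 4, against 0.18, -0.05, 0.22 and 0.22 on siFoxO6-2 replicates 1 to 4. The siRNAs did not overlap: the lowest siFoxO6-3 array was above the highest siFoxO6-2 array. The spot read 597, 873, 795 and 310 in the siFoxO6-3 channel, against 184, 157, 150 and 142 in the scrambled channel. It read 349, 243, 213 and 489 in the siFoxO6-2 channel, against 182, 149, 175 and 131 in the scrambled channel. Before loess the mean log2 ratio of Scrg1 was 1.43, while 2193 probes of like intensity had a median of 0.84. After loess the mean was 1.10 ± 0.27 with siFoxO6-3 (SD, n = 4 pools; limma adjusted p = 0.0227), or 2.15-fold, and 0.14 ± 0.13 with siFoxO6-2 (SD, n = 4 pools; limma adjusted p = 0.472; 95% interval -0.08 to 0.37). Under median centring the siFoxO6-2 value was 0.52 (adjusted p = 0.198, limma), outside that interval, and the siFoxO6-3 value was 1.53 (adjusted p = 0.269), with the siRNAs still apart. The value with both siRNAs together, 0.62 (SE 0.07, adjusted p = 0.00332, limma), is an average of these unlike values. The siFoxO6-3 call was lost without siFoxO6-3 replicate 1, 2 or 3 or siFoxO6-2 replicate 1, with adjusted p of 0.0612 to 0.139, while the ratio stayed at 0.96 to 1.17 over all 8 fits that left out 1 array.

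Gjb6 encodes a connexin, a gap junction protein of astrocytes. Gjb6 probe A had 0.24, 0.24, 0.21 and 0.32 on siFoxO6-3 replicates 1 to 4, and 0.24, 0.29, 0.04 and 0.39 on siFoxO6-2 replicates 1 to 4. All 8 arrays were above 0 and the siRNAs overlapped. The fitted mean was 0.25 (SE 0.03, adjusted p = 0.00574, limma) and was called in all 8 fits that left out 1 array. By siRNA it was 0.25 ± 0.05 with siFoxO6-3 (SD, n = 4 pools; limma adjusted p = 0.0657) and 0.24 ± 0.15 with siFoxO6-2 (SD, n = 4 pools; limma adjusted p = 0.0263). The siFoxO6-2 call was lost without siFoxO6-2 replicate 1, 2 or 4 (adjusted p up to 0.138), without background correction (0.0799), in the deposited table (0.0664), with the siFoxO6-2 arrays alone (0.113) and under median centring (0.47, adjusted p = 0.2). Gjb6 probe B passed the control spots in both channels on 5 arrays and had 0.34, -0.33, 0.30 and 0.14 with siFoxO6-3, and 0.42, -0.17, 0.01 and 0.21 with siFoxO6-2. Its fitted mean was 0.12 (adjusted p = 0.383).

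S100b, a calcium-binding protein gene of astrocytes and some oligodendrocyte lineage cells, had the smallest range over the 8 arrays among the brightest member probes. It had 0.05, 0.02, 0.01 and 0.04 on siFoxO6-3 replicates 1 to 4, and 0.12, 0.09, 0.02 and -0.15 on siFoxO6-2 replicates 1 to 4. The fitted mean was 0.02, with a 95% interval of -0.05 to 0.10 (adjusted p = 0.718, limma). Aldh1l1, an enzyme of folate metabolism used as an astrocyte marker, varied more between arrays. It had -0.25, 0.48, 0.50 and -0.01 on siFoxO6-3 replicates 1 to 4, and -0.22, -0.77, 0.09 and -0.36 on siFoxO6-2 replicates 1 to 4. The siRNAs overlapped, at a mean of 0.18 ± 0.37 with siFoxO6-3 and -0.32 ± 0.35 with siFoxO6-2 (SD, n = 4 pools each), and neither was called. The fitted mean of both was -0.07 (SE 0.11, adjusted p = 0.767).

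By siRNA, 2 of 15 member probes were called with siFoxO6-3 (Olig1 and Scrg1, both higher), where 0.658% of all probes were called, 0.265% higher and 0.393% lower. With siFoxO6-2, 3 were called (Olig1 and Gjb6 probe A higher, Mbp probe A lower), where 7.86% of all probes were called, 4.08% higher and 3.78% lower. The difference siFoxO6-3 minus siFoxO6-2 does not depend on the scrambled pool. It was called by limma for 0 of 15 member probes and for 0 of 41174 probes (0% called). At an unadjusted p under 0.05 there were 2 member probes, Scrg1 and Mbp probe A, and 2789 of all probes. For Scrg1 the difference was 0.96 (95% interval 0.64 to 1.28, adjusted p = 0.21, limma), and for Mbp probe A it was 0.47 (0.30 to 0.64, adjusted p = 0.238). After loess these were also the 2 member probes whose siRNA groups did not overlap, as held for 3.58% of all probes and 4.37% of those above the control spots in both channels on 8 arrays. Under median centring Scrg1 stayed separate and Mbp probe A did not. For Olig1 the difference was 0.10 (-0.17 to 0.37), for Gjb6 probe A 0.01 (-0.14 to 0.17), and for Aldh1l1 0.49 (-0.03 to 1.01), so the intervals leave room for unequal responses. Foxo6 itself differed by -0.71 in the same direction of subtraction (adjusted p = 0.348, limma).

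The member values moved with the normalization within arrays. On the mean of the 8 arrays, the siRNA channel gained on the scrambled channel with spot intensity. Before loess, probes of the intensity of Olig2 probe B had a median log2 ratio of 0.15, and probes of the intensity of Sox10 probe A had 0.97. The gradient differed between arrays: loess moved the Sox10 probe A ratio more than that of Olig2 probe B, by 0.84 to 2.01 against 0.05 to 0.21, on 6 arrays. On siFoxO6-3 replicate 4 it ran the other way (-0.41 against -0.03), and on siFoxO6-2 replicate 3 it was nearly flat (0.03 against 0.05). Median centring leaves this gradient in place. Under it the median of the 9 members by their brightest probe was 0.48 and that of all genes, dim ones included, 0.18. The 21473 probes above the control spots in both channels on 8 arrays, as all 9 were, had a median of 0.28. Called with both siRNAs together were then Olig1 (0.91, adjusted p = 0.0399, limma) and Scrg1 (1.02, adjusted p = 0.0399), 2 of 15, where 1.23% of all probes were called. Olig2 probe A stood at 0.56 (adjusted p = 0.0539), Gjb6 probe A at 0.48 (0.0621), Pdgfra probe A at 0.44 (0.0639) and Sox10 probe A at 0.67 (0.0685). In the authors' deposited table of log2 ratios, with both siRNAs together, Olig1, Scrg1, Gjb6 probe A, Pdgfra probe A and Mbp probe A were on the same side and called, while Olig2 probe A at 0.22 had an adjusted p of 0.0651.

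**Figure D3:**
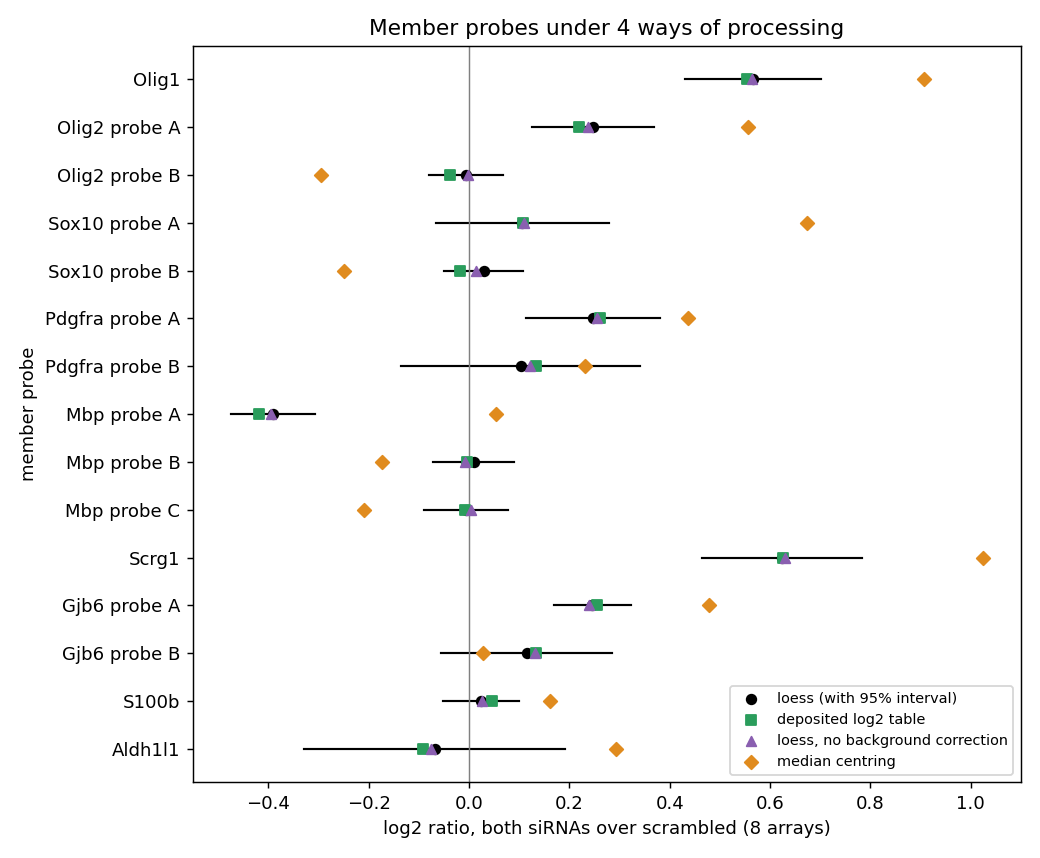
Log2 ratio of both siRNAs over scrambled (horizontal axis) for the 15 member probes under loess with its 95% interval, the deposited log2 table, loess without background correction and median centring. Median centring moves the brighter member probes upward, Olig1 to 0.91 and Mbp probe A to 0.054, and the other 3 ways lie close together.

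Other genes of the oligodendrocyte lineage gave no common direction. Of 24 listed, 21 were on the arrays and 15 were above the control spots on all 8. With both siRNAs together, 1 of 21 was called higher and 3 lower, with a median of 0.04, against 7.29% higher and 7.95% lower of all genes. Myrf, the myelin regulatory factor (listed on the arrays as Gm98), was at 0.22 (adjusted p = 0.0287, limma). Tcf7l2, a Wnt effector of oligodendrocyte maturation, was at -0.89 (adjusted p = 0.00179) and Sox9, a gliogenic factor shared with radial glia, was at -0.59 (adjusted p = 0.0128). Mag, a myelin glycoprotein gene, was at -0.21 (adjusted p = 0.0309). Under median centring none of the 4 was called and Sox9 and Mag turned to 0.15 and 0.49, while Tcf7l2 stood at -0.30 and Myrf at 0.60.

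Of 20 other astrocyte lineage genes, all measured, 3 were called higher and 1 lower, with a median of 0.09, against 7.29% higher and 7.95% lower of all genes. Sparcl1, a secreted matrix protein gene of astrocytes and vessels, was at 1.03 (adjusted p = 0.00272, limma), and Gja1, another astrocyte connexin gene, was at 0.61 (adjusted p = 0.0393). Slc1a3, a glutamate transporter of radial glia and astrocytes, was at 0.45 (adjusted p = 0.0215). Nfib, a nuclear factor that promotes gliogenesis, was at -0.90 (adjusted p = 0.017). Under median centring the median was 0.57, Sparcl1 alone was called (1.70, adjusted p = 0.0427) and Nfib stood at -0.12.

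**Figure D4:**
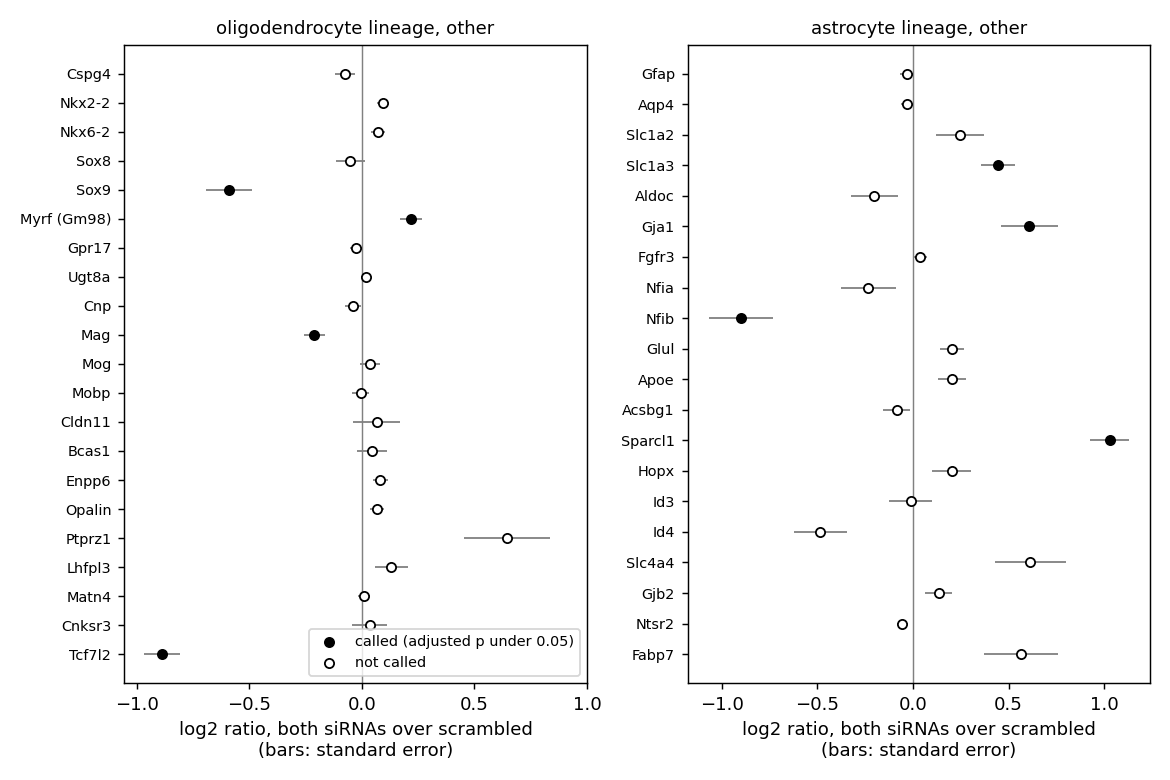
Log2 ratio of both siRNAs over scrambled with its standard error for the other oligodendrocyte lineage genes (left) and astrocyte lineage genes (right), by the brightest probe of each gene; filled points were called. On the left 1 gene is called higher and 3 lower, and on the right 3 higher and 1 lower, after loess; under median centring Sox9 and Mag turn to 0.15 and 0.49.

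Markers of other cells that the sort could hold were read beside the members. Microglia markers had 4 of 8 called higher with both siRNAs together (Ctss, Csf1r, Aif1 and P2ry12, at 0.28 to 1.04) and 0 lower. The shares of all genes were 7.29% higher and 7.95% lower. Trem2 (0.07), C1qa (0.10), Cx3cr1 (0.01) and C1qb (-0.03) were not called. By siRNA, 4 of 8 were called higher with siFoxO6-2 and 0 of 8 with siFoxO6-3, against 4.08% and 0.265% of all probes. On all arrays 6 of 8 were above the control spots, while P2ry12 passed them in both channels on 3. Under median centring 1 of 8 was called, Ctss at 1.55 (adjusted p = 0.0399, limma), while Aif1 (0.31, adjusted p = 0.0519), Csf1r (0.86, adjusted p = 0.0607) and P2ry12 (0.19, adjusted p = 0.149) were not. After loess, the mean ratio of the 8 markers per array was 0.11 to 0.18 with siFoxO6-3 and 0.34 to 0.49 with siFoxO6-2. Their summed intensity, uncorrected and not normalized, was 724 to 2268 in the siFoxO6-3 channel and 1445 to 3528 in the siFoxO6-2 channel. It was 749 to 948 in the scrambled channel, and these sums still hold the difference between channels that loess takes out. The array mean ratios of these markers after loess were all higher with siFoxO6-2, and how often other gene lists separate so was not computed. The difference siFoxO6-3 minus siFoxO6-2 was largest for Ctss (-1.12) and Csf1r (-0.57), while Cx3cr1 (0.09) and C1qb (0.11) went the other way. In the difference between siRNAs limma called 0 of 8, and the part of these markers in the member values was not tested. Radial glia markers had 1 of 8 called higher (Slc1a3) and 2 lower (Hes5 at -0.90 and Nes at -0.50) after loess, and 0 of 8 called under median centring, where Hes5 stood at -0.30 and Nes turned to 0.055. Among 6 excitatory neuron markers 1 was called lower after loess (Bcl11b, -0.55) and none under median centring, where Bcl11b turned to 0.11. Among 4 intermediate progenitor markers 1 was called lower after loess (Eomes, -0.10) and none under median centring, where Eomes turned to 0.36. Among 6 endothelial markers 1 was called higher after loess (Cldn5, 0.32) and none under median centring (Cldn5 at 0.60). Under either normalization none was called among 7 interneuron and ventral forebrain, 4 pericyte and 3 red blood cell markers.

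The genes whose ratios followed the mean of Olig1 and Olig2 probe A most closely over the 8 arrays, after the dye term was taken away, were Mdga1 (Pearson r = 0.995), Foxl2 (0.988), Trnau1ap (0.986), Mrpl40 (0.986) and Eln (0.982), out of 13067 genes. Mdga1 encodes a neuronal adhesion protein, Foxl2 a forkhead factor, Trnau1ap a selenocysteine tRNA-associated protein, Mrpl40 a mitochondrial ribosomal protein and Eln elastin. These arrays share the scrambled pool and the r is a description. Trnau1ap averaged 0.25 and Mrpl40 0.24 with both siRNAs, while Mdga1 (-0.06), Foxl2 (0.01) and Eln (-0.05) averaged near 0, and none of the 5 was called.

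Promoter sequence was at hand for 5 of the 9 members in RefSeq (GRCm38.p6), and the windows of the 3 called members among them are shown because these genes were called in the same direction. Each window is the 250 bases before the gene start, 5′ to 3′ on the gene's strand, and capitals mark an E-box (letters CANNTG), the type of site that Olig and other helix-loop-helix factors bind.
Olig2 (chr16:91225300-91225549, plus strand): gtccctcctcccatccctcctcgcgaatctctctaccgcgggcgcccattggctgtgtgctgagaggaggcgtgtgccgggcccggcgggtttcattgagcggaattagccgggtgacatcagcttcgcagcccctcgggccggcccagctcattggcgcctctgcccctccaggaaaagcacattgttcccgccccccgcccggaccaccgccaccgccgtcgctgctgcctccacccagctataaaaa
Pdgfra (chr5:75152001-75152250, plus strand): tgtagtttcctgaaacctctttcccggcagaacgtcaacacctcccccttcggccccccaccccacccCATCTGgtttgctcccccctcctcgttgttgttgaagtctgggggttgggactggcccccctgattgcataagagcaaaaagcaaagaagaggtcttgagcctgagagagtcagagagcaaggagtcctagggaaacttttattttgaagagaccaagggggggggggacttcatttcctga
Gjb6 (chr14:57133612-57133861, minus strand): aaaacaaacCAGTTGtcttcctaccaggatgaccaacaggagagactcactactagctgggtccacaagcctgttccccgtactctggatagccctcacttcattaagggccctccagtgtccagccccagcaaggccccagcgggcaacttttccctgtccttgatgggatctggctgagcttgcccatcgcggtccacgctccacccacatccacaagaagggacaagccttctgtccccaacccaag
The letters TGTTTAC, a FoxO-type site searched on both strands, were in 0 of the 5 windows, and 3.17% of all 32851 promoter windows of this length held them. An E-box was in 4 of the 5, where 66.2% of all windows held one; Olig2 was the member without, and the S100b and Aldh1l1 windows, not shown, held 1 each. These are letter matches in a short window and say nothing of binding.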

How the data were processed

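Expression was measured on 8 dual-colour mouse arrays, 4 per siRNA, each against 1 scrambled pool. Scanner output, as deposited, holds the intensity of each spot in each dye beside its local background, uncorrected, per the file headers. The deposited value table holds the authors' log2 ratios of siRNA over scrambled. How the authors made it is not given in the sources used here, and it correlated across spots with the loess ratios at 0.850 to 0.972.

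Mean intensities of 45220 spots were corrected by normexp (offset 50) and loess-normalized within arrays, with 4046 control spots at weight 0. The 959 background-level control spots are the 2 most replicated control reporters, whose nature the files do not state. Loess assumes that most probes of any brightness do not change. Of 41174 gene probes, 34186 paired with 1 symbol, 0 with several and 6988 with none. Ratios were signed by the dyes in the labels, and limma 3.58.1 (R 4.3.3) fitted 1 coefficient per siRNA and a dye term, with 5 residual degrees of freedom. Tests were two-sided, with Benjamini-Hochberg adjustment over all probes. The limma fit was tested on simulated ratios, which did not pass through background correction or loess.

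The members and the lists were chosen with earlier results of these data known. Named besides the 9 members were Foxo6, up to 4 genes per list by the smallest p, and the 5 genes most like Olig1 and Olig2. Cell type markers were counted as lists; those named singly were chosen after their values were seen. Whether same-numbered arrays of the siRNAs share animals could not be decided. Their deviations from the fit correlated at 0.36, -0.18, -0.29 and -0.53. Same-numbered arrays share a dye orientation, and fitting the dye term pushes these correlations toward negative values, so they say nothing of pairing. Whether the pools came from separate litters is not stated, and the number of arrays limits the precision.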

Additional observations from a re-analysis of the deposited data

Results flagged for a closer look

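Scrg1 with siFoxO6-3 had 1 array far from the other 3. Replicate 4 stood at 1.50, while replicates 1 to 3 lay between 0.97 and 0.98, so that 0.977 of the whole range lay between replicate 4 and its nearest neighbour, past Dixon's critical value for groups of 4. This is also the array with the dimmest siRNA channel and the lowest correlation with the others. Scrg1 with siFoxO6-2 had replicate 2 at -0.053 below the other 3 at 0.18 to 0.22, a gap of 0.863 of the range. Of the 30 groups tested (15 probes and 2 siRNAs), these 2 exceeded the critical value, and chance flags about 1 in 20. Without siFoxO6-3 replicate 4 the Scrg1 ratio with siFoxO6-3 was 0.96 (adjusted p = 0.0146, limma), and without siFoxO6-2 replicate 2 its ratio with siFoxO6-2 was 0.24 (adjusted p = 0.306).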

How the results depend on the processing

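With both siRNAs together, the number of called member probes was 6, and 4 to 6 when 1 array at a time was left out. For siFoxO6-3 it was 2, with a range of 0 to 5, for siFoxO6-2 it was 3, with a range of 1 to 4, and for the difference 0 throughout. The 5 came without siFoxO6-2 replicate 3. The 0 for siFoxO6-3 came without replicate 1, 2 or 3 of that siRNA or without siFoxO6-2 replicate 1. The siFoxO6-2 count was 1 without its replicate 1 or 4. Over all probes, there were 271 calls with siFoxO6-3, 1534 without siFoxO6-2 replicate 3 and 0 without siFoxO6-3 replicate 1 or 2. Median centring gave 2 called with both siRNAs, 0 with siFoxO6-3 and 0 with siFoxO6-2, with 506, 0 and 0 calls over all probes, and turned Mbp probe A to 0.054 with both siRNAs. The siFoxO6-2 arrays fitted alone gave 1. Leaving out the 3 arrays least like the others together, an alternative chosen after seeing the data, gave 5 for siFoxO6-2. With the replicate block the counts were 5 with both siRNAs, 1 with siFoxO6-3 and 3 with siFoxO6-2 (11 calls over all probes with siFoxO6-3). Deviations from the main fit cannot decide whether the numbers pair, because same-numbered arrays share a dye orientation and that fit holds a dye term. The cause of the changes in the counts was not tested. Of 950 member values under the alternatives, 901 kept their side of the threshold and their direction where called, 42 lost the call, 6 gained it and 1 reversed. Most of the 901 were uncalled throughout, since the main fit called only 6 member probes with both siRNAs, 3 with siFoxO6-2, 2 with siFoxO6-3 and 0 in the difference. The 42 lost calls therefore come from a much smaller number of called values. Among the 901, 84 values changed sign without being called either way. A slide or scan block was not run, because the files name neither. Low signal limits Olig2 probe B, Sox10 probe B and Mbp probes B and C, which passed the control spots in both channels on at most 2 arrays.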
